A study of Mus musculus with 30 samples.

Results

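The mitochondrial fatty acid oxidation enzymes are the 10 genes Cpt1a, Cpt1b, Cpt2, Acadvl, Acadl, Acadm, Acads, Hadha, Hadhb and Acaa2, chosen by symbol from the 26253 genes listed in the deposited tables. The rule uses no measured value, although the set was chosen with earlier results of these data known. RNA was sequenced from 30 descending thoracic aortas of male C57BL/6J mice. Vascular Ehlers-Danlos syndrome (VEDS) mice carried a heterozygous glycine-to-aspartate missense allele of Col3a1, the gene of the type III collagen chain, and controls were wild type. There were 6 untreated control, 6 untreated VEDS, 6 control and 6 VEDS aortas from mice given hydralazine (32 mg/kg/day in drinking water from birth), and 3 VEDS aortas for each of 2 combinations. HB mice received hydralazine with bicalutamide, an androgen receptor antagonist (50 mg/kg/day in chow from day 21), and HS mice received hydralazine with spironolactone, a mineralocorticoid receptor antagonist (100 mg/kg/day from day 21). HB and HS aortas were taken at day 60. The untreated and hydralazine groups held mice of day 30 and of day 60, and the labels do not give the age of a library, so age and the addition of an antagonist cannot be told apart where HB or HS is compared with either of these groups. The labels state that the adventitia was pulled off with forceps, and the methods state that perivascular fat was cleaned away, before freezing. Each library came from a separate aorta.

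These enzymes carry long-chain fatty acids into the mitochondrial matrix and shorten them there. Carnitine palmitoyltransferase 1 on the outer membrane, of which Cpt1a is the liver-type and Cpt1b the muscle-type form, joins the acyl chain to carnitine, and Cpt2 on the inner membrane transfers it back to coenzyme A. Acyl-CoA dehydrogenases of very long, long, medium and short chain preference (Acadvl, Acadl, Acadm, Acads) start each round, the trifunctional protein (Hadha and Hadhb) carries out the later steps on long chains, and the thiolase Acaa2 cleaves shorter ones. The pathway is used heavily by heart, brown fat and fasting liver, and Cpt1b is the main form in muscle and brown adipocytes. Malonyl-CoA, made by the acetyl-CoA carboxylases Acaca and Acacb, inhibits carnitine palmitoyltransferase 1.

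RefSeq promoter windows (250 bases before to 50 bases after the start, build GRCm38.p6, whereas the expression files use mm39) were at hand for 8 of the 10 genes, all but Acaa2 and Cpt1b. Hadha and Hadhb face away from each other with 272 bases between their starts, and their windows overlap. The hexamer AGGTCA, the core that PPAR and related nuclear receptors bind, was matched on either strand in 3 of the 8 windows (Acadm, Acadvl and Cpt1a), against 16.3% of all 32851 windows. The direct repeat of that hexamer with a spacer of a single base, AGGTCANAGGTCA, was in none of the 8 and in 0.0396% of all windows. The GC box GGGCGG was in 6 of the 8 (Acadl, Acads, Cpt1a, Cpt2, Hadha and Hadhb), against 35.7% of all. CCAAT was in Cpt1a alone (37.4% of all), and TATAAA was in none (13.6% of all). These are matches of letters, not measured binding. The stretches before the start that hold no annotated exon are shown for the 3 genes with the hexamer and for the divergent pair, with capitals marking AGGTCA or GGGCGG on either strand and each sequence written 5′ to 3′ on the strand named.
Acadm, chr3:153944644-153944893, minus strand: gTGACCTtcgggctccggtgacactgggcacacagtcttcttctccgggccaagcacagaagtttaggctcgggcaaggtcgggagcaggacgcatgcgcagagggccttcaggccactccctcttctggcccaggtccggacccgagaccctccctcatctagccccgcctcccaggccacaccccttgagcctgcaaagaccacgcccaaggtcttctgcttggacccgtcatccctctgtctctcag
Acadvl, chr11:70015429-70015678, minus strand: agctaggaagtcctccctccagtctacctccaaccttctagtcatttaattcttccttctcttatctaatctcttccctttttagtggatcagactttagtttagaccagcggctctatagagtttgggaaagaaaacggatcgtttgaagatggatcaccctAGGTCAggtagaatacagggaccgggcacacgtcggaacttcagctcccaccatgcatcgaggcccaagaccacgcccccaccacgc
Cpt1a, chr19:3323051-3323284, plus strand: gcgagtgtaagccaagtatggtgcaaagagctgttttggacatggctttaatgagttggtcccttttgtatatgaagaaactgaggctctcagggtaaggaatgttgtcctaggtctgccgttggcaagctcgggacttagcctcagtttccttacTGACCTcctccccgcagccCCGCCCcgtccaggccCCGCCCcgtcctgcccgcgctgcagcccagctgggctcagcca
Hadha and Hadhb shared stretch, chr5:30155163-30155247, plus strand: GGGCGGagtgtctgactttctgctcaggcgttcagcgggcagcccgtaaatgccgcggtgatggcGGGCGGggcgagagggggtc
The Cpt1a stretch lies inside the span that RefSeq gives the gene, since other start sites are annotated before it. The printed Hadha and Hadhb stretch is the part of the intergenic interval outside the exons of both genes, and its 2 GC boxes stand before both starts.

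Library totals ran from 5517510 to 8293289 expected counts, and 15854 to 16486 genes had a count in a library. Smooth muscle markers were high in every library (Myh11, 5212 to 10632 CPM, counts scaled to the library total). Brown adipocyte, adipocyte, hepatocyte and cardiomyocyte transcripts were present too, although perivascular fat had been cleaned from the aortas. Ucp1, the thermogenic uncoupling protein of brown adipocytes, ran from 25.3 to 885 CPM, albumin (Alb) from 47.5 to 10859 CPM and cardiac Myh6 from 0.241 to 427 CPM. An HB library (replicate 2, 403 CPM) and a control hydralazine library (replicate 5, 427 CPM) stood apart in Myh6, and HS replicate 3 stood apart in the fatty acid synthase gene Fasn (121 CPM). Col3a1 fell into separate levels, with 3 of the 6 libraries in each untreated and hydralazine group at 4316 to 7710 CPM and the other 3 at 13568 to 17690 CPM, and all HB and HS libraries lay within the lower level, at 5549 to 7381 CPM. The enzymes differed along this split in some groups. In VEDS hydralazine aortas Acadvl had 206, 128 and 156 CPM at the lower Col3a1 level (replicates 1, 2 and 6). At the higher level (replicates 3, 4 and 5) it had 243, 318 and 271 CPM. In untreated VEDS aortas the 2 levels overlapped, at 202, 297 and 265 CPM (replicates 1, 2 and 3) and 314, 277 and 342 CPM (replicates 4, 5 and 6). What part this split has in the HB and HS results was not tested. In bulk tissue, fewer cells of a type and less RNA per cell cannot be told apart.

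All 10 enzymes were detected in every library, with at least 71 expected counts (Cpt1b) in the lowest. On the per-length scale of TPM (transcript abundance scaled for length and library), Hadhb had the highest median over the 30 libraries (77.3 TPM), followed by Acaa2 (73.0), Acadvl (65.1), Acadm (59.5), Hadha (53.1), Acadl (34.0), Cpt1a (17.1), Acads (14.0), Cpt1b (12.7) and Cpt2 (12.5). The order was clearest at 2 places. Hadha was above Acadl in all 30 libraries and Acadl was above Cpt1a in 29, whereas Acaa2 was above Acadvl in 16 and Cpt1b above Cpt2 in 15. The matrix enzymes were thus separated from the carnitine transferases and Acads, while neighbours within each set changed places between libraries.

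**Figure D1:**
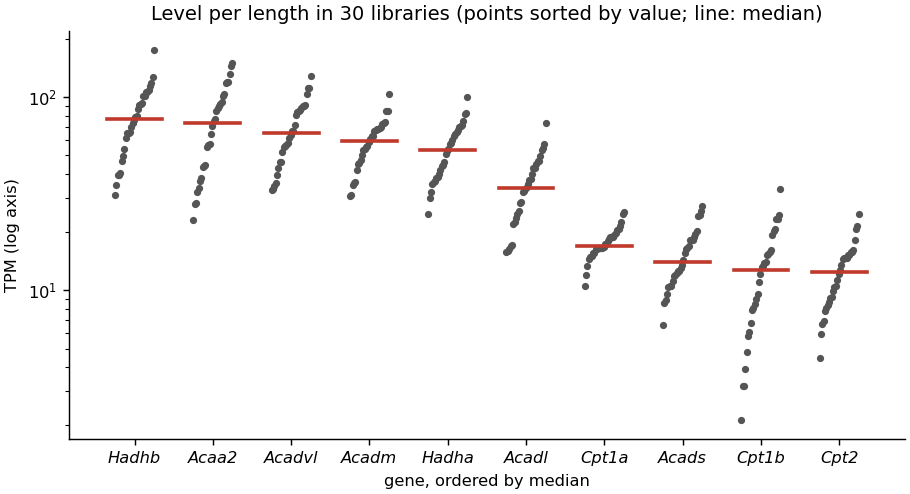
Level per length (TPM, log axis) of each of the 10 genes in the 30 libraries, with points sorted by value and a line at the median. The medians fall from 77.3 TPM for Hadhb to 12.5 TPM for Cpt2, Cpt1b spans the widest range (2.13 to 33.4 TPM) and Cpt1a the narrowest (10.6 to 25.5 TPM).

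The carnitine palmitoyltransferase 1 forms were at opposite ends of the range of variation. The liver-type form Cpt1a varied 1.88-fold between the lowest and highest library (82.3 and 155 CPM), less than any other member. The muscle-type form Cpt1b varied 12.1-fold (9.98 to 120 CPM), more than any other member. The remaining 8 lay between, from Acadm (2.48-fold) and Hadha (2.56-fold) to Hadhb (4.26-fold) and Acaa2 (5.60-fold). Untreated VEDS replicate 6 was the highest library for 7 members (Acadl, Acadm, Acadvl, Cpt1b, Cpt2, Hadha and Hadhb) and untreated control replicate 3 the lowest for Acadvl and Cpt1b. Cpt1b was also the only member with some reads not assigned to a gene with certainty, since a read-through transcript of Cpt1b and its neighbour Chkb is listed under Chkb, and the spread of its count over RSEM's assignments was 0.543% to 7.89% of the count.

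The 9 members other than Cpt1a varied together. Over 30 libraries, Pearson's r of their log2 CPM ran from 0.79 (Acaa2 and Cpt1b) to 0.97 (Acadm and Hadhb) in the 36 pairs, with a median of 0.92. The 9 pairs with Cpt1a gave r of 0.23 to 0.46. These values are a description, since the libraries share depth scaling and the cell types above. The genes most like the mean of the 10 members, among 11121 other genes with a mean of at least 5 CPM, were Dlst (r = 0.98) of the citric acid cycle, Atp5b (0.97) of ATP synthase, Etfdh (0.97), which passes electrons from the acyl-CoA dehydrogenases to the respiratory chain, the carnitine-acylcarnitine carrier Slc25a20 (0.97) and Uqcrc1 (0.97) of respiratory complex III. For Cpt1b they included Kcnk3 (r = 0.97), Cidea (0.96), a lipid droplet gene of brown adipocytes, Slc36a2 (0.96) and the fatty acid transporter Cd36 (0.95). For Cpt1a the closest genes were further away, namely H6pd (r = 0.71), Slc35d1 (0.71), Vipr1 (0.70), Brap (0.70) and the complement gene C3 (0.69).

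The same 9 members varied with the brown adipocyte gene Ucp1. Their r with Ucp1 ran from 0.86 (Acaa2) to 0.95 (Acadvl), and the r of Cpt1a with Ucp1 was 0.34. Deviations from the 6 group means leave out differences between these groups, though not differences of age within a group. Taken in this way, Cpt1b gave r = 0.96 with Ucp1, Acadl 0.95, Acadvl 0.95 and Hadhb 0.95, whereas Cpt1a gave 0.20. The members differed more in how they varied with albumin, the main hepatocyte transcript. Here r was highest for Acaa2 (0.76), Acads (0.68) and Cpt2 (0.67) and lowest for Cpt1b (0.35), Hadhb (0.44) and Acadl (0.46). Ppara, the nuclear receptor that drives these genes in liver and brown fat, gave r of 0.95 with Acaa2, 0.75 with Cpt1b and 0.53 with Cpt1a. With the smooth muscle myosin Myh11 the 9 members had negative r, from -0.77 (Acaa2) to -0.61 (Cpt1b).

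**Figure D2:**
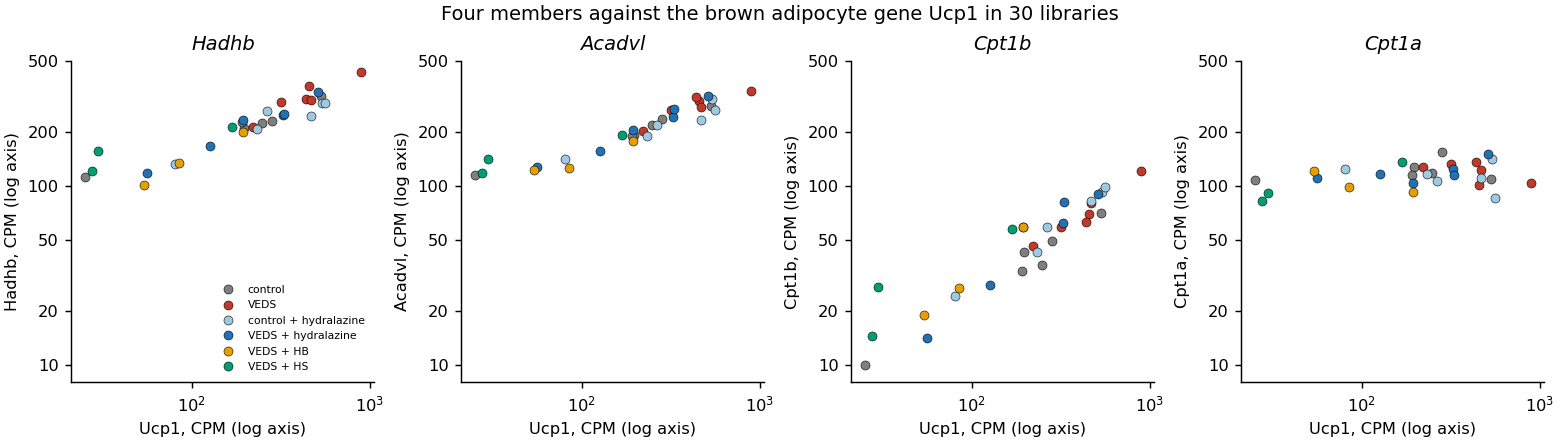
CPM of Hadhb, Acadvl, Cpt1b and Cpt1a against CPM of Ucp1, each point a library coloured by group, both axes logarithmic. The first 3 genes rise along Ucp1 in all groups (r = 0.93, 0.95 and 0.94 over 30 libraries), whereas Cpt1a stays between 82.3 and 155 CPM (r = 0.34).

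To ask whether the VEDS allele goes with a different level of these enzymes, untreated VEDS aortas were set against untreated control aortas. No member passed the test, and 0 of all 12976 genes tested (0%) reached an adjusted p of 0.05 or less, the limit for a call. Of the 10 members 9 had higher means in VEDS, with a median log2 fold change of 0.31 against 0.003 for all genes tested. At an unadjusted p under 0.05 there were 4 members (Acadm, Acadvl, Cpt1b and Hadhb) against 394 genes in all (3.04%), and DESeq2 called 0 members and 0 genes.

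Cpt1b showed the greatest difference in means. In untreated control aortas it had a lowest, median and highest level of 9.98, 39.5 and 71.0 CPM, and in untreated VEDS aortas of 46.0, 66.2 and 120 CPM. The ranges overlapped, and the log2 fold change was 0.85 ± 0.35 (SE, n = 6 and 6, edgeR adjusted p = 1.0). Hadhb, the thiolase subunit of the trifunctional protein, had levels of 112, 226 and 318 CPM in control and 215, 305 and 432 CPM in VEDS, with a log2 fold change of 0.53 ± 0.21 (adjusted p = 1.0). Acadvl, the dehydrogenase of the longest chains, had 115, 205 and 281 CPM in control and 202, 287 and 342 CPM in VEDS (log2 fold change 0.46 ± 0.19, adjusted p = 1.0). In both genes the lower VEDS libraries lay among the controls. The log2 fold change was 0.46 ± 0.22 for Acadl, 0.31 ± 0.17 for Hadha, 0.30 ± 0.13 for Acadm, 0.30 ± 0.23 for Cpt2, 0.28 ± 0.18 for Acads and 0.24 ± 0.30 for Acaa2. Cpt1a was at the same mean in both groups, 122 ± 17.4 CPM in control and 121 ± 14.6 CPM in VEDS (SD, n = 6 each, log2 fold change -0.01 ± 0.10). The brown adipocyte list had the same lean, with 9 of 10 genes higher in VEDS (median log2 fold change 0.45) and a summed level of 295 to 1033 CPM in control and 616 to 1461 CPM in VEDS. With a brown adipocyte score as covariate the median of the members was 0.03, and with a hepatocyte score 0.54, so that the size of the difference in means depended on which tissue score was held fixed.

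**Figure D3:**
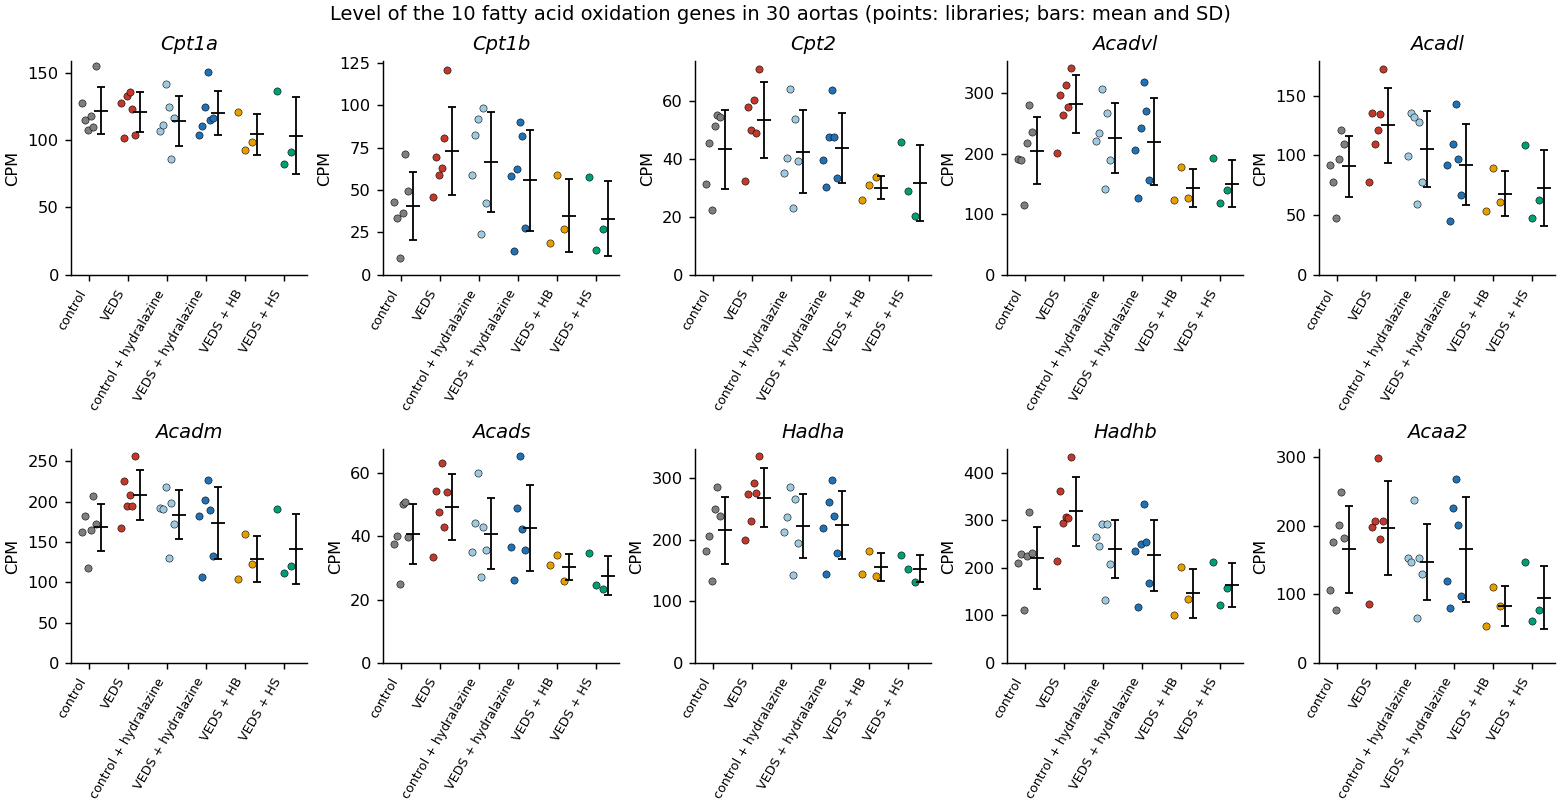
CPM of the 10 members in the 6 groups, with 1 point per library and the mean with SD beside it, all axes from 0. Untreated VEDS has the highest mean for every gene but Cpt1a, the HB and HS means are the lowest 2 for every gene, and the points of neighbouring groups overlap in most panels.

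Under hydralazine the genotypes did not stand apart. The members split 5 higher and 5 lower in VEDS, with a median log2 fold change of -0.02 and a range from -0.25 (Cpt1b) to 0.16 (Acaa2). None was called (0% of 12966 genes), and 0 members against 602 genes (4.64%) had an unadjusted p under 0.05. With both treatments joined and hydralazine as a term, all 10 were higher in VEDS by 0.03 (Cpt1a) to 0.30 (Cpt1b) on the log2 scale, and again none was called (0% of 13235 genes). At an unadjusted p under 0.05 there were 0 members and 494 genes (3.73%). DESeq2 called 0 members in both comparisons, and 1 and 2 genes in all.

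Treatment with the antihypertensive hydralazine was then compared with no treatment within each genotype. In VEDS aortas 9 of 10 members had lower means with hydralazine, with a median log2 fold change of -0.26, and none was called (0% of 13006 genes). Hadhb had 118, 242 and 334 CPM as its lowest, median and highest level with hydralazine, below the untreated values given above by 0.48 ± 0.22 on the log2 scale (n = 6 and 6, edgeR adjusted p = 1.0). Cpt1b, at 14.1, 60.3 and 90.2 CPM, differed by -0.37 ± 0.37. The brown adipocyte list was lower with hydralazine for 10 of 10 genes in VEDS and the adipocyte list for 9 of 9 tested, while the hepatocyte list was higher for 8 of 10. In control aortas the members split 7 higher and 3 lower, with a median of 0.09, and none was called (0% of 12951 genes). Cpt1b had 24.1, 70.4 and 98.6 CPM in hydralazine-treated controls and the greatest difference of the members, 0.72 ± 0.40 (edgeR adjusted p = 0.559). The 98.6 CPM came from replicate 5, which had the highest Myh6 (427 CPM) and Ucp1 (560 CPM) of its group. In this comparison 8 of 9 adipocyte and 6 of 6 cardiomyocyte genes were higher with hydralazine, and 10 of 10 hepatocyte genes were lower. At an unadjusted p under 0.05 there were 0 members in either genotype, against 589 genes (4.53%) in VEDS and 1230 genes (9.50%) in controls, and DESeq2 called 0 members and 2 and 5 genes.

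The interaction asks whether hydralazine acted differently in the genotypes, and it was negative for 9 of 10 members. Cpt1b gave -1.11 ± 0.58 and Acadl -0.65 ± 0.36 on the log2 scale (edgeR adjusted p = 1.0 for each). No member and 0 of 13407 genes (0%) were called, the unadjusted p was under 0.05 for 0 members and 440 genes (3.28%), and with DESeq2 the calls were 0 and 0. The adipocyte list had the same sign for 10 of 10 genes (median -0.83), the brown adipocyte list for 8 of 10 (median -0.59) and the cardiomyocyte list for 6 of 6 tested (median -1.74). The hepatocyte list had the opposite sign for 10 of 10 genes (median 1.26).

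The ratio of Cpt1b to Cpt1a places the muscle-type against the liver-type form within a library. In TPM, Cpt1b was above Cpt1a in 5 of 30 libraries, and the ratio ran from 0.142 to 1.77. The mean log2 ratio was -1.19 ± 0.91 in untreated control, -0.18 ± 0.60 in untreated VEDS, -0.32 ± 0.89 in hydralazine-treated control and -0.74 ± 0.96 in hydralazine-treated VEDS (SD, n = 6 each). It was -1.13 ± 1.02 in HB and -1.23 ± 0.64 in HS (SD, n = 3 each). The spread within each group was about as wide as the differences between groups. The subunits of the trifunctional protein kept a much closer ratio, with Hadhb at 0.965 to 1.79 times Hadha in TPM and above it in 29 libraries.

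**Figure D4:**
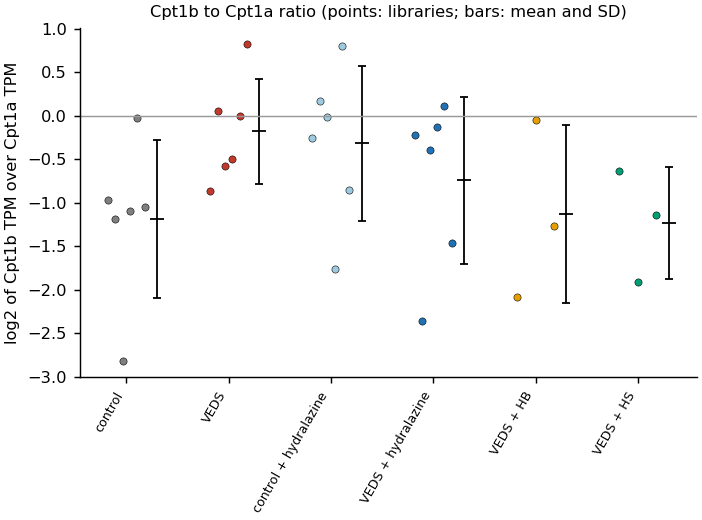
Log2 of Cpt1b TPM over Cpt1a TPM in each library by group, with the mean and SD beside the points and a line at equal level. The groups overlap throughout, the lowest point is an untreated control (-2.82) and the highest an untreated VEDS aorta (0.82).

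The greatest differences were between the combination treatments and no treatment. In HB aortas all 10 members had lower means than in untreated VEDS aortas, with a median log2 fold change of -0.86 against -0.02 for all genes. With edgeR 0 of the 10 were called, against 54 of 13204 genes (0.409%), of which 28 were higher and 26 lower. The smallest adjusted p of a member was 0.052 (Acadvl), and 9 of 10 members, all but Cpt1a, were under 0.05 before adjustment, against 16.4% of genes. DESeq2 called those 9 members, against 4.27% of genes, so the call on this comparison rested on the tool. Without untreated VEDS replicate 1, the lowest library of its group for 9 members, edgeR called 8 members (Acadl, Acadm, Acads, Acadvl, Acaa2, Cpt2, Hadha and Hadhb). Calls over all genes rose with them, to 529 from 54 with every library kept.

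Acadvl had 124, 126 and 179 CPM in the HB aortas, against 202, 287 and 342 CPM as the lowest, median and highest untreated level. The ranges did not overlap, and the HB mean was at 50.3% of the untreated level (log2 fold change -0.99 ± 0.18, n = 3 and 6, edgeR adjusted p = 0.052, DESeq2 adjusted p = 4.87e-06). Hadhb had 102, 134 and 202 CPM, all below the untreated minimum of 215 CPM, for a log2 fold change of -1.13 ± 0.25 (edgeR adjusted p = 0.076). Its partner subunit Hadha had 141, 144 and 181 CPM, all below the untreated minimum of 200 CPM (-0.79 ± 0.16, edgeR adjusted p = 0.067). Acadm, the medium-chain dehydrogenase, had 104, 123 and 160 CPM, all below the untreated minimum of 167 CPM (-0.69 ± 0.16, edgeR adjusted p = 0.085). These 4 were the members whose HB range lay wholly below the untreated range, as was so for 3.78% of all genes tested.

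In the other 6 members the groups overlapped. Acaa2, the thiolase of shorter chains, had the greatest difference, with 53.4, 83.4 and 111 CPM in HB and 85.6, 203 and 299 CPM in untreated VEDS (-1.26 ± 0.35, edgeR adjusted p = 0.125). Cpt1b had 18.9, 26.9 and 59.1 CPM (-1.07 ± 0.38, adjusted p = 0.197). The highest HB value of Cpt1b came from replicate 2, and without it the log2 fold change was -1.67. That library had the highest HB level of both Myh6 (403 CPM) and Ucp1 (194 CPM), and the source of its Cpt1b was not tested. The differences were -0.89 ± 0.24 for Acadl, -0.84 ± 0.21 for Cpt2 and -0.71 ± 0.19 for Acads. Cpt1a differed least of the 10 members, at 92.7, 98.6 and 121 CPM against 102 to 135 CPM, a log2 fold change of -0.22 ± 0.12 (adjusted p = 0.400), or 85.7% of the untreated level.

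HS aortas, compared with the same 6 untreated libraries, gave values of like size. All 10 members were lower, with a median log2 fold change of -0.83 against -0.01 for all genes, and edgeR called 0 of them against 41 of 13276 genes (0.309%), of which 34 were lower. At an unadjusted p under 0.05 there were 9 members, again all but Cpt1a, against 11.1% of genes. DESeq2 called 4 members (Acads, Acadvl, Hadha and Hadhb), against 2.22% of genes. Without untreated VEDS replicate 1 edgeR called Acads, Acadvl and Hadha among 104 genes in all, against 41 genes with every library kept.

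Hadha had 132, 152 and 175 CPM in HS, all below the untreated minimum of 200 CPM (log2 fold change -0.82 ± 0.16, n = 3 and 6, edgeR adjusted p = 0.086). Acadvl had 118, 141 and 194 CPM (-0.92 ± 0.19, adjusted p = 0.104) and Hadhb 121, 157 and 213 CPM (-0.97 ± 0.23, adjusted p = 0.142), also wholly below untreated. These 3 were the members with no overlap, against 3.04% of all genes lower without overlap. Cpt1b had 14.4, 27.1 and 57.4 CPM, with the greatest difference in means (-1.15 ± 0.42, adjusted p = 0.340), and Acaa2 had 61.0, 76.8 and 147 CPM (-1.06 ± 0.38). The differences were -0.85 ± 0.20 for Acads, -0.79 ± 0.29 for Acadl, -0.76 ± 0.28 for Cpt2 and -0.57 ± 0.19 for Acadm. Cpt1a, at 82.3, 91.4 and 136 CPM, differed by -0.24 ± 0.17 (adjusted p = 0.615). HS replicate 1 was the highest HS library for all 10 members, and without it the median of the members was -1.13.

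**Figure D5:**
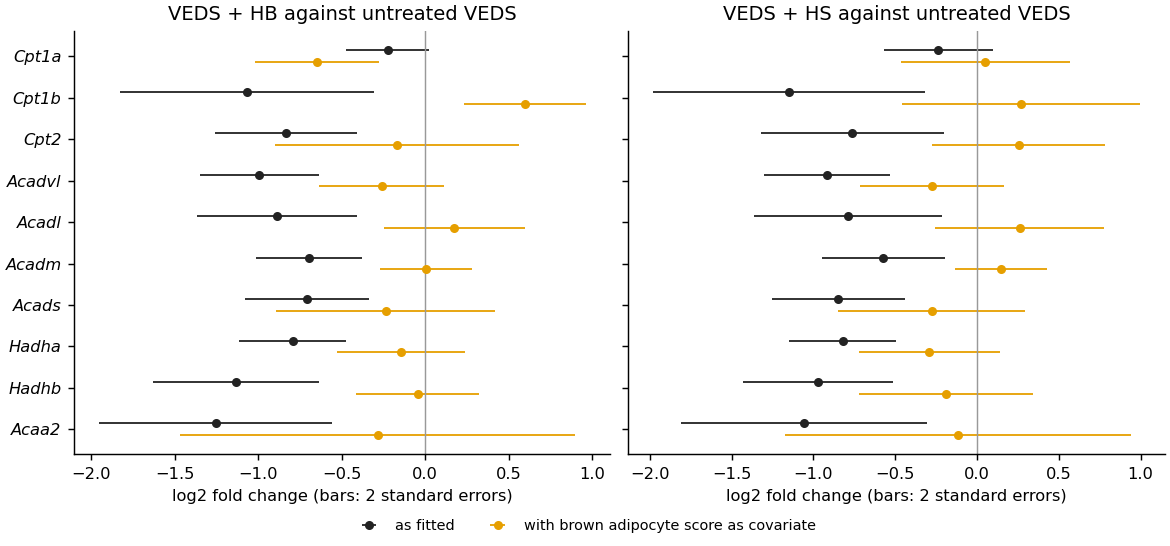
Log2 fold change of each member in HB (left) and HS (right) against untreated VEDS aortas, with bars of 2 standard errors, as fitted and with a brown adipocyte score as covariate. As fitted all 10 lie below 0, from -1.26 to -0.22 in HB and from -1.15 to -0.24 in HS, and with the score they lie on both sides of 0.

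Most brown adipocyte transcripts were lower along with the enzymes in both combinations, though none was called. Of the 10 genes of the list 8 were lower in HB (median log2 fold change -1.40) and 9 in HS (median -1.18), the exceptions being Prdm16 (0.33 ± 0.10) and Dio2 (0.08 ± 0.19) in HB and Dio2 (0.24 ± 0.17) in HS. The general adipocyte list was lower for 10 of 10 genes in HB (median -0.93) and for 7 of 10 in HS (median -0.19). Ucp1 had 54.3, 84.7 and 194 CPM in HB and 27.6, 29.7 and 168 CPM in HS, all below the untreated VEDS minimum of 219 CPM. The summed level of the 10 brown adipocyte genes was 353 to 600 CPM in HB and 304 to 581 CPM in HS, also below the untreated range of 616 to 1461 CPM, and no gene of the list was at 0 in any library. With the score of this list as covariate the median of the members was -0.16 in HB and -0.03 in HS, and no member was called. Acadvl then gave -0.26 in HB and Hadhb -0.04, while Cpt1b gave 0.60, Acadl 0.18 and Cpt1a -0.65 (adjusted p = 0.819 for Cpt1a and Cpt1b). Since the summed levels of the groups did not overlap, the score and the treatment cannot be told apart fully in these fits. The hepatocyte list was lower for 10 of 10 genes in both HB (median log2 fold change -2.48) and HS (median -2.14), with 0 called. It had a summed level of 821 to 1094 CPM in HB and 312 to 2430 CPM in HS, within the untreated range of 157 to 18318 CPM. With its score as covariate the HB values of Acadvl (-0.91, adjusted p = 0.026) and Hadha (-0.74, adjusted p = 0.044) passed the test. Calls over all genes rose as well in that fit, by the count given in the closing section. Cardiomyocyte genes were higher in HB for 6 of 6 genes tested (median log2 fold change 3.62), and in HS lower for 4 of 5. Of the 3 libraries that stood apart, only HB replicate 2 enters the HB comparison and only HS replicate 3 the HS comparison. Without them the medians of the members were -1.02 in HB and -0.72 in HS, and no member was called.

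HB and HS were also compared with hydralazine alone, which they include. The hydralazine libraries held both Col3a1 levels, whereas HB and HS held only the lower. All 10 members were lower in HB by a median of -0.54 on the log2 scale, none was called, and 2 of 13266 genes (0.0151%) were. Acaa2 gave -1.01 ± 0.40 (n = 3 and 6, edgeR adjusted p = 0.264) and Hadha -0.53 ± 0.20 (adjusted p = 0.251). At an unadjusted p under 0.05 there were 4 members against 15.5% of genes. In HS all 10 were lower by a median of -0.51, none was called (0% of 13304 genes), and 2 members (Acads at -0.63 ± 0.26 and Hadha at -0.55 ± 0.21) against 13.6% of genes were under 0.05 before adjustment. With DESeq2 no member was called in either, against 575 and 53 genes. The hepatocyte list was lower than with hydralazine for 10 of 10 genes in both HB (median -2.67, 10 genes with an unadjusted p under 0.05) and HS (median -2.18, 9 genes), with 0 called, and with its score as covariate the median of the members was 0.28 in HB and 0.19 in HS. Brown adipocyte genes were lower too, 8 of 10 in HB (median -0.92) and 9 of 10 in HS (median -0.85), with 0 called. Cardiomyocyte genes were higher in HB for 6 of 6 tested (median 3.45) and lower in HS for 4 of 5. HB and HS did not differ detectably from each other, with 6 members higher and 4 lower in HS and log2 fold changes from -0.13 ± 0.18 (Acads) to 0.21 ± 0.36 (Acaa2). The interval of 2 standard errors ran from -0.30 to 0.27 for Hadha and from -1.14 to 1.00 for Cpt1b, so that differences of such size remain possible. There was no member called (0% of 12800 genes), 0 members against 6.68% of genes at an unadjusted p under 0.05, and 0 members and 28 genes called by DESeq2.

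Other genes of the pathway had the same direction in the combinations, with few calls. Of the genes for transport and activation 9 of 9 tested were lower in HB than in untreated VEDS (median log2 fold change -0.62), led by the carnitine carrier Slc25a20 (-0.98 ± 0.20, adjusted p = 0.064) and the acyl-CoA synthetase Acsl5 (-1.15 ± 0.25, adjusted p = 0.076), and none was called. Of the matrix partners of the cycle 12 of 13 were lower and none was called, including Hadh, the short-chain 3-hydroxyacyl-CoA dehydrogenase (-0.77 ± 0.18), and Decr1 (-0.72 ± 0.17), the reductase for unsaturated chains. Electron transfer genes were lower for 4 of 4, with Etfdh at -0.93 ± 0.24, peroxisomal oxidation genes for 11 of 13 (median -0.52) and ketone body genes for 3 of 4, and none was called. In HS 7 of 9 transport genes, 11 of 13 matrix partners, 3 of 4 electron transfer genes, 12 of 13 peroxisomal genes and 3 of 4 ketone body genes were lower, and none was called.

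The control genes held the called changes. Acaca fell by 1.41 ± 0.23 in HB (adjusted p = 0.0407) and by 1.87 ± 0.25 in HS (adjusted p = 0.0311) on the log2 scale, with 263, 336 and 374 CPM in HB and 179, 255 and 274 CPM in HS against an untreated minimum of 579 CPM. Acacb fell by 1.29 ± 0.22 in HB (adjusted p = 0.0431) and gave -1.50 ± 0.30 in HS (adjusted p = 0.086). They were the 2 called of 16 control genes in HB, and Acaca was the 1 called in HS, against 0.409% and 0.309% of all genes tested. Ppara gave -1.17 ± 0.35 in HB (adjusted p = 0.143) and -0.93 ± 0.40 in HS (adjusted p = 0.433), while Ppard gave 0.36 ± 0.15 and 0.35 ± 0.14. The coactivator gene Ppargc1a gave -0.49 ± 0.28 in HB and -0.61 ± 0.30 in HS. Of 13 further PPAR target genes 2 were called in HB, Plin2 (-1.35 ± 0.22, adjusted p = 0.0412), which coats lipid droplets, and Angptl4 (-1.27 ± 0.21, adjusted p = 0.0431), an inhibitor of lipoprotein lipase, and all 13 were lower. In HS 12 of the 13 were lower and none was called. The calls of this paragraph depended on single libraries. Without untreated VEDS replicate 2 or 5, or without HS replicate 2, 0 genes were called in HS, so the Acaca call was lost. It was also lost with the brown adipocyte score as covariate. In HB that score left 1 call over all genes, so most of the HB calls named here were lost as well. In HB only 2 genes in all were called without HB replicate 1 or without HB replicate 2. None of the companion lists had a called gene in untreated VEDS against control, where 12 of 16 control genes and 11 of 13 PPAR target genes were higher.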

How the data were processed

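Stranded total RNA libraries of 30 aortas were sequenced and, per the labels, base calls were converted with CASAVA 1.8.4 and genes quantified with RSEM on mm39. The authors deposited, per library, an expected count and a TPM value for each gene. Expected counts (97.6% whole within 1e-06) were rounded. For 11 comparisons the libraries concerned were analysed alone in edgeR 4.0.16 (R 4.3.3; TMM, default filter, quasi-likelihood F-test), with Benjamini-Hochberg adjustment over all genes tested and calls at 0.05 or less. DESeq2 1.42.0 was a second tool. CPM carry TMM factors over 30 libraries, and correlations use log2 CPM with a prior count of 2. Marker scores are means of standardised log2 CPM. Age, extraction batch and pairing are not labelled per library. All 10 members are named, companion lists by counts with up to 4 genes of smallest p and fixed control genes. Some genes selected by rule are not reported here. Members and lists were chosen with earlier results of these data known. The fits were tested on simulated data. Promoters are from RefSeq (GRCm38.p6), exons from GENCODE vM21. Replicates are separate aortas.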

Additional observations from a re-analysis of the deposited data

How the results depend on the processing

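The count of members called was 0 in all 11 comparisons and stayed 0 under every alternative except in HB and HS against untreated VEDS. For HB it was 9 with DESeq2, 2 with the hepatocyte score, 1 with upper-quartile size factors, 1 with no low-count filter and 0 to 8 when single libraries were left out. Calls over all genes, given below for the other settings, are not given for the upper-quartile and unfiltered fits. Their member counts therefore have no background beside them. For HS it was 4 with DESeq2 and 0 to 3 when single libraries were left out. In both, the higher end came from leaving out untreated VEDS replicate 1. With the brown adipocyte score as covariate the log2 fold change turned in HB for Acadl (0.18), Acadm (0.00624) and Cpt1b (0.60), and in HS for Acadl (0.26), Acadm (0.15), Cpt1a (0.0521), Cpt1b (0.27) and Cpt2 (0.25). It also turned for Acads (-0.00357), Acaa2 (-0.19) and Cpt2 (-0.11) in untreated VEDS against control, and for Cpt1b (0.30) in hydralazine against untreated VEDS. With the hepatocyte score it turned for Acaa2 (0.50) and Hadha (0.14) in HB and Acads (0.0216) in HS against hydralazine, and for Cpt1a (0.0222) in untreated VEDS against control, whose value ran from -0.0501 to 0.0658 when single libraries were left out. The cause was not tested. Over all genes, the calls were 54 for HB and 41 for HS against untreated VEDS. They became 564 and 295 with DESeq2, 169 and 81 with the hepatocyte score, 1 and 0 with the brown adipocyte score, and 79 and 141 in 1 fit of all libraries. When single libraries were left out they ran from 2 to 529 and from 0 to 104. These ranges include 2 calls without HB replicate 2 and 1 call without HS replicate 3, the libraries that stood apart. Against hydralazine the 2 calls for HB became 575 with DESeq2, 38 with the hepatocyte score and 1 to 56 with single libraries left out, and the 0 for HS became 53 and 12 with the same tool and score. Without TMM factors the 60 group means moved by -1.42% to 1.77%. The fits without the libraries that stood apart were chosen after seeing the data. No paired analysis was possible because the labels give no replicate number, litter or batch that pairs libraries. With 3 HB and 3 HS libraries, and ages not given, no member was called in the main fits even at the greatest differences seen. Smaller differences could be missed more readily.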
